A study of Homo sapiens with 13 samples.

Results

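The messenger RNAs of 8 haem synthesis enzymes were followed in K562 cells during the loss of a metabolic label. They are ALAS1, ALAS2, ALAD, UROS, UROD, CPOX, PPOX and FECH, chosen by gene symbol with earlier results of these data known, though no measured value enters the rule, and they make up 8 of the 59204 human gene IDs in the tables, of which 33094 had a count in any library. K562 is an established line from a human chronic myeloid leukaemia with erythroid features. All chase libraries came from cells fed 4-thiouridine (4sU, a uridine analogue that enters new RNA) at 30 µM for 12 h, in medium renewed each 3 h. These cells were then washed and moved to medium with 3 mM uridine, and were collected after 0, 1, 2, 4, 8 or 12 h, with 2 replicates for each of the 6 times. A further library, with no replicate, came from cells without 4sU, and whether those cells went through the medium changes and the wash was not stated. RNA of every library was treated with iodoacetamide, so that 4sU is read as C, received 5% spike-in RNA from the Drosophila line S2, and was sequenced as tags from the 3′ ends of transcripts. The question for each gene was how fast its labelled RNA was lost and whether its total RNA kept its level meanwhile.

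Haem is an iron-bearing ring that haemoglobin, cytochromes and other proteins hold. Its synthesis begins and ends in mitochondria and passes through the cytosol between. The first step, which makes delta-aminolaevulinate, is catalysed by ALAS1 in most cells and by ALAS2 in erythroid cells, and is the main point of control. Haem represses ALAS1 in liver, while the ALAS2 messenger has an iron-responsive element in its 5′ untranslated region, to which iron regulatory proteins bind and hold back translation when iron is scarce. In the cytosol ALAD then joins aminolaevulinate into porphobilinogen, UROS closes the ring as uroporphyrinogen, and UROD trims that ring to coproporphyrinogen. In mitochondria CPOX and PPOX oxidise the ring and FECH, a protein with an iron-sulphur cluster, inserts the iron.

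The iron-responsive element is the best known control sequence in these messengers, and its loop was found in the GENCODE 29 transcript of ALAS2 as the letters CAGTG, shown in capitals. All sequences are written 5′ to 3′ on the GRCh38 build with T for U, and this one spans an intron, so its coordinates enclose more bases than are printed.
ALAS2 (chrX:55026014-55030969, minus strand): ttcgttcgtcctCAGTGcagggcaacagga
These letters are also present in the first 138 bases of 14.4% of 8383 coding genes, so the match is a description and not proof of a working element. The label was counted in tags from 3′ ends, and 3′ ends differ in how many U they offer to the label. The lines below show 30 bases around the AATAAA poly(A) signal, in capitals, of ALAS1 and CPOX, whose last 100 bases hold 40 and 39 U, and of UROS and PPOX, whose last 100 bases hold 21 U each.
ALAS1 (chr3:52214293-52214322, plus strand): catagtcctggaAATAAAttcttgcttaaa
CPOX (chr3:98579456-98579485, minus strand): aagagatctgctAATAAAttttattattaa
UROS (chr10:125788592-125788621, minus strand): ggaaggaagtcaAATAAAccacactgacta
PPOX (chr1:161171186-161171215, plus strand): ctcattcatgaaAATAAAaattgctggagc
AATAAA was present in the last 40 bases of 7 of the 8 transcripts and of 62.2% of all genes, with FECH as the exception. Other annotated transcripts of UROS and PPOX run past the ends shown. The letters ATTTA, the core of AU-rich elements, were found 7 times in the 3′ untranslated region of FECH (2429 bases), 3 times each in those of CPOX (1237 bases) and ALAD (1983 bases), and in none of the other members, against 69.9% of all genes with at least 1.

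The 12 chase libraries held 9004529 to 14501366 counts and the library without 4sU held 17425584. Labelled counts made up 10.6 to 36.1% of the chase libraries and 0.00633% of the library without 4sU, in which all 8 members had 0 labelled counts. With a limit of 3 counts, that allows a labelled share between 0.0412% for UROD and 2.40% for ALAD, and such limits and intervals cover counting error only. All 14 erythroid markers averaged at least 5 CPM (counts scaled to a common library total), with a summed level of 10568 to 14341 CPM in chase libraries and 4833 CPM without 4sU. The 7 megakaryocyte markers summed to 1.17 to 3.78 CPM and 3.33 CPM, with GP1BA and PF4 at 0, the 7 granulocyte and monocyte markers to 5.10 to 12.01 CPM and 16.01 CPM, and the 7 lymphocyte markers to 17.9 to 35.98 CPM and 36.4 CPM. Spike-in genes split the libraries by composition: the first principal component (68.4% of the variance of 597 genes) set both libraries of 0, 1 and 2 h and replicate 1 of 4 h apart from all others, the library without 4sU included. That split runs with chase time, so its part in the values below cannot be told apart from time except at 4 h, and values from a fit with the split as a factor (adjusted for spike-in composition) are given where they change a call. A lower level in such bulk RNA may mean fewer cells with the transcript or less of it in each cell, which cannot be told apart. Whether replicates came from separate cultures is not in the labels; every p-value here thus rests on the spread between libraries, which may be technical.

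Levels were uneven along the pathway. Each transcript gives tags from its 3′ end, so CPM was compared between genes without division by length. UROD stood highest, with a lowest, median and highest total level of 494, 567 and 640.2 CPM over the 12 chase libraries. FECH followed with 37.4, 42.1 and 44.96 CPM, UROS with 17.3, 30.2 and 37.2 CPM, ALAS2 with 25.4, 28.9 and 33.1 CPM, and PPOX with 25.5, 27.8 and 29.8 CPM. ALAD had 9.75, 18.7 and 23.1 CPM, CPOX 10.2, 13.7 and 19.1 CPM, and ALAS1, the form used outside erythroid cells, was lowest with 4.91, 6.71 and 8.53 CPM. The ranges of neighbours in this order overlapped, except between UROD and FECH, FECH and UROS, PPOX and ALAD, and CPOX and ALAS1. ALAS1 rested on 60 to 121 total counts per chase library, against 5765 to 9117 for UROD.

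**Figure D1:**
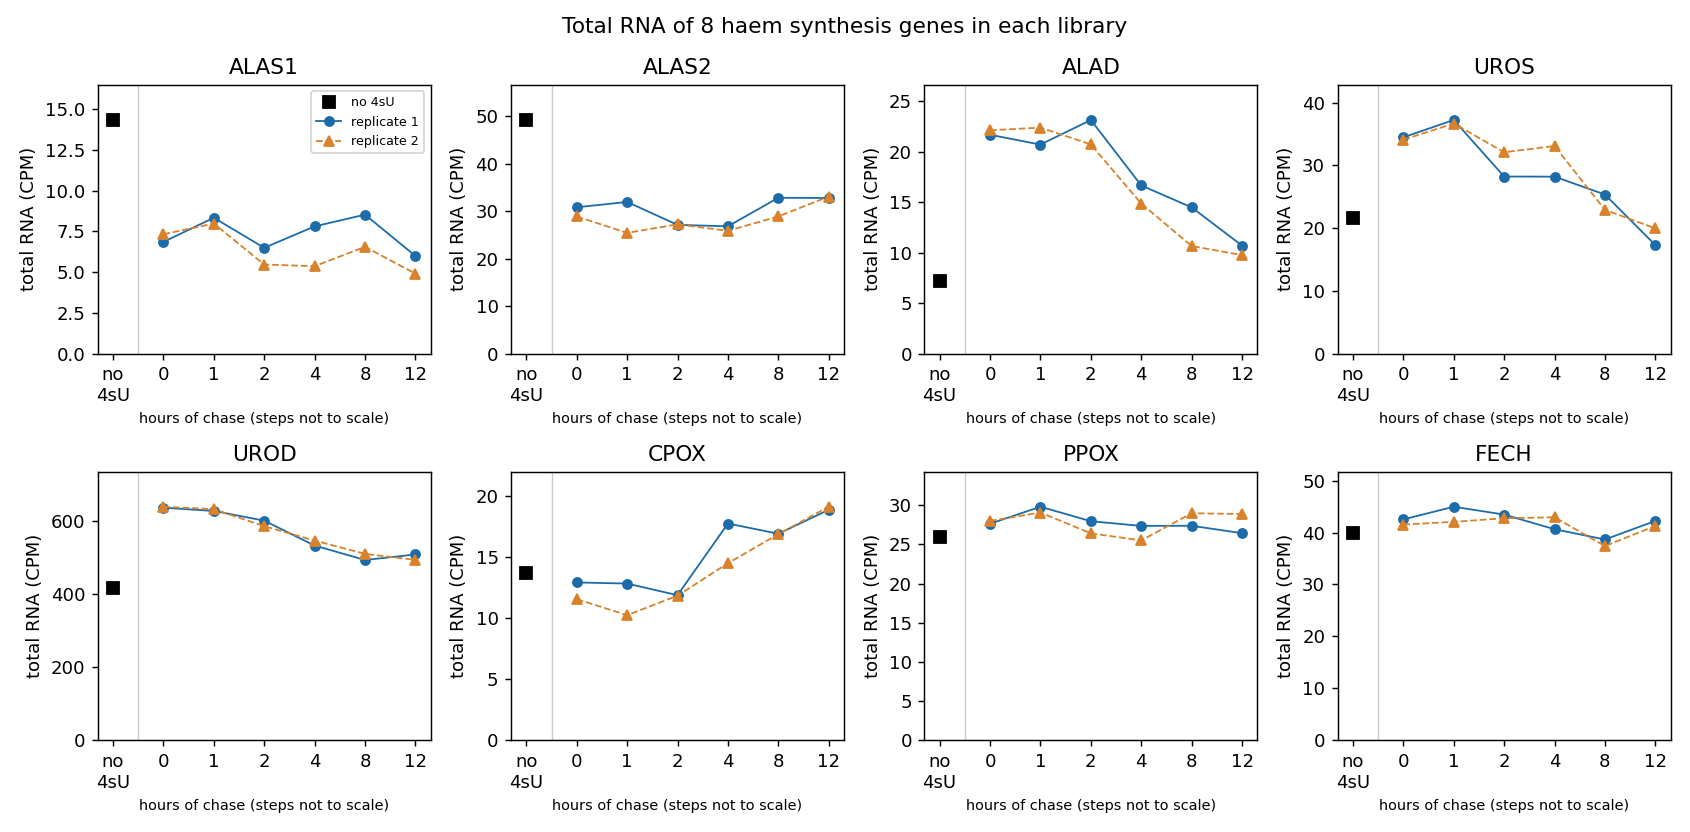
Total RNA (CPM, y axes from 0) of each of the 8 genes in the library without 4sU (square) and in the chase libraries of 0 to 12 h (circles, replicate 1; triangles, replicate 2). ALAD and UROS end the chase at 9.75 to 10.7 CPM and 17.3 to 19.97 CPM, and CPOX ends it at 18.9 and 19.1 CPM.

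At the end of the pulse the members fell into a high and a low set by labelled share, the percentage of a gene's counts that carried label. With both 0 h libraries pooled the share was 80.7% (95% Wilson interval 73.3 to 86.5%) for ALAS1, 74.8% (95% Wilson interval 68.9 to 79.9%) for CPOX, 69.8% (95% Wilson interval 65.2 to 73.99%) for ALAD and 65.3% (95% Wilson interval 61.98 to 68.6%) for FECH. It was 42.1% (95% Wilson interval 38.1 to 46.2%) for ALAS2, 34.6% (95% Wilson interval 33.7 to 35.4%) for UROD, 32.7% (95% Wilson interval 29.2 to 36.4%) for UROS and 31.5% (95% Wilson interval 27.7 to 35.6%) for PPOX. The median of 9459 genes with at least 100 counts was 57.6%, so 4 members lay above it and 4 below. ALAS1 had a higher share than 96.8% of those genes, and PPOX than 18.2%. The single libraries had 81.2 and 80.3% for ALAS1 and 33.1 and 29.8% for PPOX. The 0 h replicates were farthest apart for ALAS2, with 48.7 and 34.2%.

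The labelled share at 0 h and the U content of the 3′ end ran together. Over the 8 members Spearman's rho was 0.96 and Pearson's r 0.91, and over 8037 coding genes they were 0.44 and 0.44, across genes of the same 2 libraries that are no independent replicates. ALAD, with 29 U in its last 100 bases, had a share of 69.8%, against 34.6% for UROD and 42.1% for ALAS2, which have 27 U each. The labelled slope, described next, had a rho of -0.05 with U content over the 8037 genes and -0.49 over the 8 members. The part of U content in these shares was not tested.

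**Figure D2:**
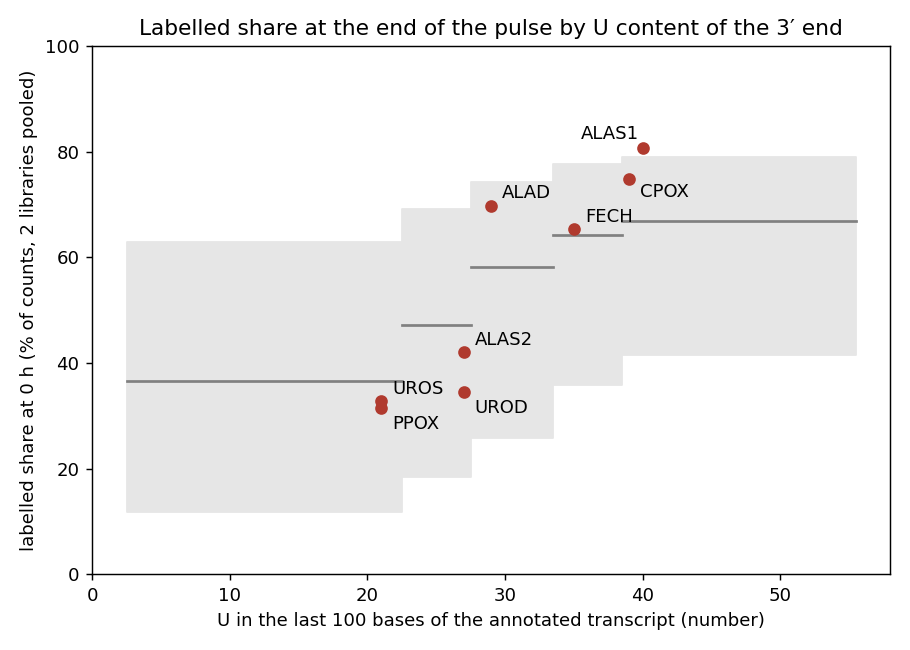
Labelled share at 0 h (% of counts, both libraries pooled, y axis) against the number of U in the last 100 bases of the annotated transcript (x axis) for the 8 members (points). Grey bands span the 10th to 90th percentile and grey lines the median of coding genes in 5 bins of U content; the bin of 39 to 55 U has a median of 66.95%, against 36.6% in the bin of 3 to 22 U, and ALAS1 lies above its band.

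Loss of label was uneven among the members. Of the 8, 4 lost labelled RNA more slowly than the median gene (ALAS2, UROD, PPOX and FECH), 1 lost it faster (ALAS1), and ALAD, UROS and CPOX did not pass the test in either direction. Across all 9652 genes tested, 36.3% were slower and 36% faster, so these counts are near the background. The slope is the change of log2 labelled counts per hour relative to library size, and its median was -0.24 over all genes and -0.21 over the 8 members. The test was edgeR's quasi-likelihood F test of the difference from the median slope, with Benjamini-Hochberg adjustment over all genes and a threshold of 0.05.

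By labelled slope, the 2 synthases of the first step stood at opposite ends of the set. Labelled RNA of ALAS1 was 5.56 and 5.89 (0 h), 6.96 and 6.10 (1 h) and 4.68 and 3.99 (2 h), then 3.44 and 2.41 (4 h), 0.920 and 1.19 (8 h) and 0.435 and 0.546 (12 h) (CPM, replicates 1 and 2). Both 12 h libraries lay below every library up to 8 h, but they rest on 5 and 7 labelled counts. The slope of ALAS1 was -0.33 ± 0.03 (SE) per hour, and by edgeR's quasi-likelihood test it was steeper than the median with an adjusted p of 0.00728. That call was lost in the windows of 0 to 4 h (adjusted p = 0.146) and 2 to 12 h (0.129) and in the edgeR fit adjusted for spike-in composition (0.703).

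ALAS2, the erythroid synthase, kept most of its label. Its labelled RNA was 15.003 and 9.88 (0 h), 11.9 and 8.64 (1 h) and 8.94 and 9.24 (2 h), then 8.91 and 9.12 (4 h), 10.4 and 6.64 (8 h) and 8.17 and 9.59 (12 h) CPM. From 1 h on, the libraries ranged without a clear order, and both 12 h values lay below both 0 h values, which were themselves far apart. The slope was -0.04 ± 0.02 (SE), higher than that of 98.04% of genes tested, and above the median by 0.20 (adjusted p = 1.1e-10, edgeR). In the window of 0 to 4 h the slope was above the median by 0.04 and did not pass the test (adjusted p = 0.619, edgeR). ALAS2 overlaps APEX2, a gene on the opposite strand with a mean of 39.7 CPM, and the use of strand in counting was not given in the sources used here, so its counts are uncertain to that extent.

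The cytosolic enzymes lay between these ends. ALAD had labelled RNA of 14.7 and 15.9 (0 h), 14.1 and 13.9 (1 h) and 17.05 and 13.02 (2 h), then 8.36 and 8.68 (4 h), 4.69 and 3.24 (8 h) and 1.65 and 2.03 (12 h) CPM. For UROS it was 11.8 and 10.6 (0 h), 10.2 and 11.8 (1 h) and 8.94 and 8.95 (2 h), then 7.19 and 7.33 (4 h), 3.43 and 2.90 (8 h) and 1.30 and 1.79 (12 h) CPM. In both, every library of 8 and 12 h lay below every library of 0 to 4 h, and the slopes were -0.28 ± 0.02 and -0.25 ± 0.02 (SE), not separated from the median (adjusted p = 0.121 and 0.572, edgeR). UROD, the decarboxylase, rested on 775 to 3049 labelled counts per library, the most of the set. Its labelled RNA was 220.5 and 221 (0 h), 210.3 and 217 (1 h) and 208 and 209 (2 h), then 173 and 176 (4 h), 112 and 107 (8 h) and 67.3 and 64.4 (12 h) CPM, with replicates close at every time. The slope of UROD was -0.16 ± 0.01 (SE), above the median by 0.08 (adjusted p = 1.9e-09, edgeR), and it passed the test under all 21 alternatives run.

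Of the mitochondrial enzymes, PPOX and FECH lost label more slowly than the median gene and CPOX did not pass. CPOX, which makes protoporphyrinogen, had labelled RNA of 9.34 and 8.995 (0 h), 9.59 and 7.99 (1 h) and 8.38 and 7.84 (2 h), then 7.19 and 7.96 (4 h), 2.76 and 3.24 (8 h) and 0.608 and 1.17 (12 h) CPM. Its values stayed between 7.19 and 9.59 CPM up to 4 h and were at most 3.24 CPM from 8 h on, and its slope was -0.26 ± 0.03 (SE; adjusted p = 0.428, edgeR). PPOX, the oxidase of the next step, had 9.14 and 8.33 (0 h), 10.6 and 9.59 (1 h) and 8.45 and 8.95 (2 h), then 7.50 and 6.62 (4 h), 5.44 and 6.13 (8 h) and 2.87 and 2.26 (12 h) CPM of labelled RNA. Its slope of -0.15 ± 0.02 (SE) was above the median (adjusted p = 0.000198, edgeR), and the call was lost in the window of 0 to 4 h (0.512) and with adjustment for spike-in composition (0.0711). PPOX overlaps B4GALT3 on the opposite strand (mean 72.7 CPM), with the same uncertainty as ALAS2. FECH, which inserts the iron, had 26.8 and 28.2 (0 h), 28.96 and 28.6 (1 h) and 29.4 and 27.3 (2 h), then 22.7 and 22.1 (4 h), 15.6 and 16.95 (8 h) and 8.95 and 9.91 (12 h) CPM. The 12 h libraries of FECH were the lowest, and its slope of -0.14 ± 0.01 (SE) was above the median (adjusted p = 2.2e-07, edgeR), a call lost in the window of 0 to 4 h (0.144).

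**Figure D3:**
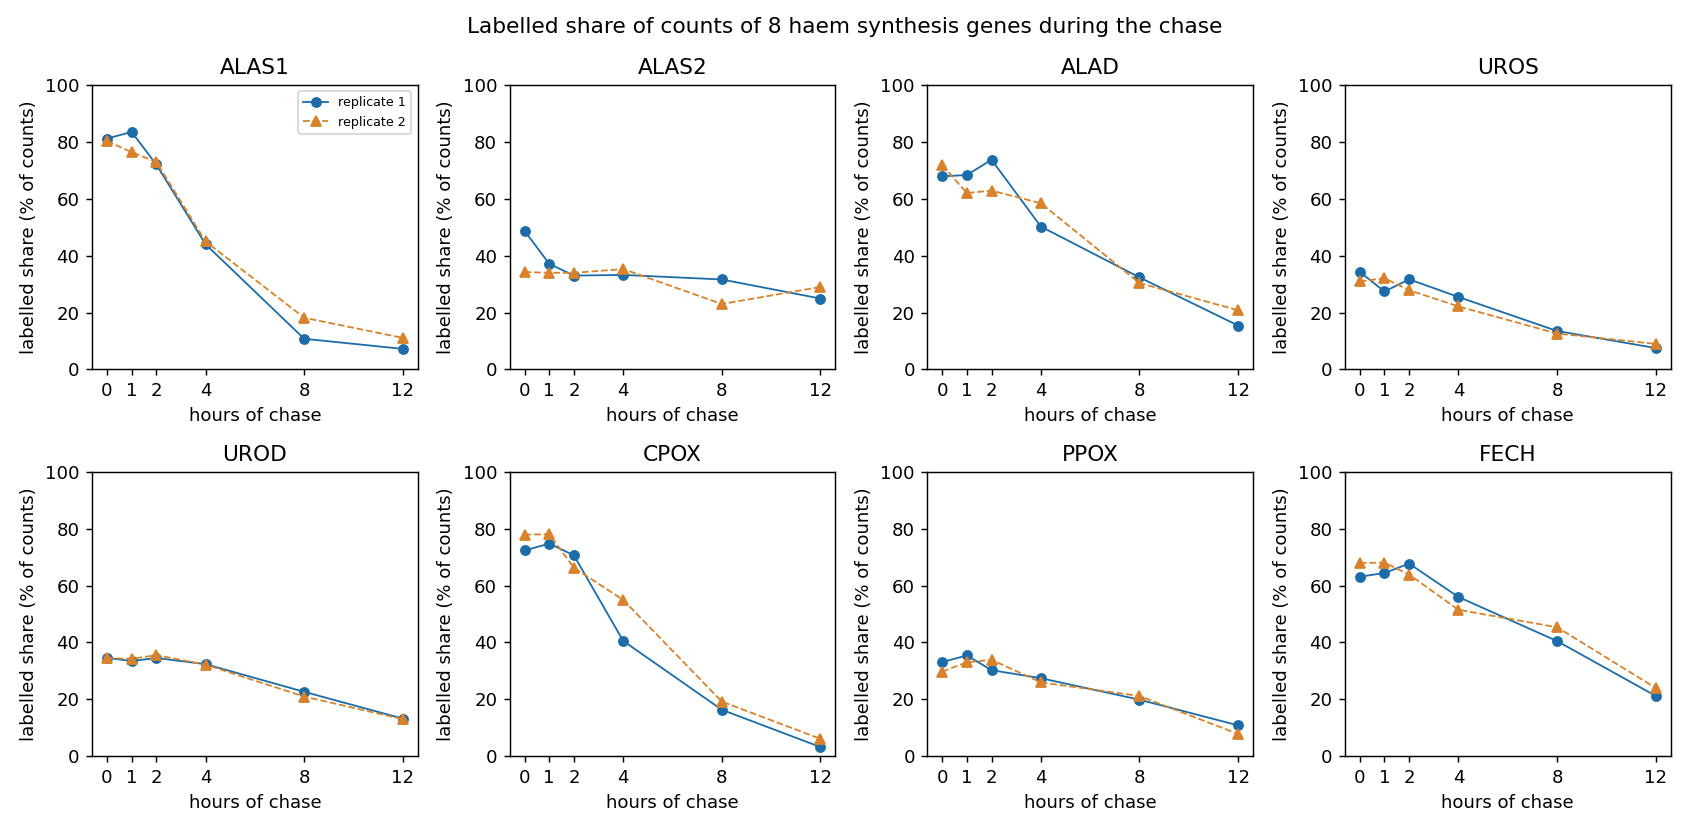
Labelled share of each gene's counts (%, y axes from 0 to 100) against hours of chase (x axes) for the 8 genes; circles are replicate 1 and triangles replicate 2. ALAS1 and CPOX begin at 72.3 to 81.2% and end at 3.23 to 11.1%, while ALAS2 ends at 24.9 and 29.01%.

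Written as apparent half-lives, the members spanned a wide range. An exponential was fitted to labelled counts over the 12 chase libraries. ALAS1 had 3.05 h (95% interval 2.51 to 3.89 h), ALAD 3.74 h (95% interval 3.03 to 4.88 h), UROS 4.04 h (95% interval 3.55 to 4.69 h) and CPOX 4.12 h (95% interval 3.26 to 5.61 h). UROD had 6.45 h (95% interval 5.77 to 7.32 h), PPOX 6.72 h (95% interval 5.33 to 9.09 h) and FECH 7.14 h (95% interval 6.06 to 8.70 h). For ALAS2 the upper bound passed 48 h, so a lower limit of 11.7 h is given. The median of all genes was 4.30 h, with 2.30 h and 10.9 h at the 10th and 90th percentiles. In this order the intervals of neighbours overlapped, except between CPOX and UROD and between FECH and ALAS2.

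Half-lives depended on the window and on the scale used. From 2 to 12 h alone they were 2.97 h for ALAS1, 3.09 h for ALAD, 3.39 h for CPOX, 5.72 h for UROD and 6.21 h for FECH, with a median of 3.75 h over all genes. From 0 to 4 h alone ALAS1 had 3.48 h and UROD 9.94 h, CPOX had a lower limit of 5.66 h, and the median was 6.26 h. In that window ALAS2 had a lower limit of 3.42 h and FECH of 5.80 h, so the place of ALAS2 as the longest-lived member was not seen there. The intervals of both windows were apart for CPOX, whose limit lay above the upper bound of 4.83 h from 2 to 12 h. They were also apart for UROD, with 7.30 to 15.6 h from 0 to 4 h and 5.44 to 6.02 h from 2 to 12 h, and overlapped for the other members. Relative to each gene's own total, the values for ALAD and UROS were 6.57 h and 6.18 h, longer than those from the main fit. Those of ALAS1 (3.41 h), UROD (9.21 h), PPOX (7.45 h) and FECH (8.41 h) were longer too, and that of CPOX was shorter (3.34 h). The interval of UROD was 7.37 to 12.3 h on this scale, apart from 5.77 to 7.32 h in the main fit. With spike-in totals as library sizes UROD had 8.20 h, PPOX 8.64 h and FECH 9.35 h. The median of all genes then rose as well, to 5.01 h.

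**Figure D4:**
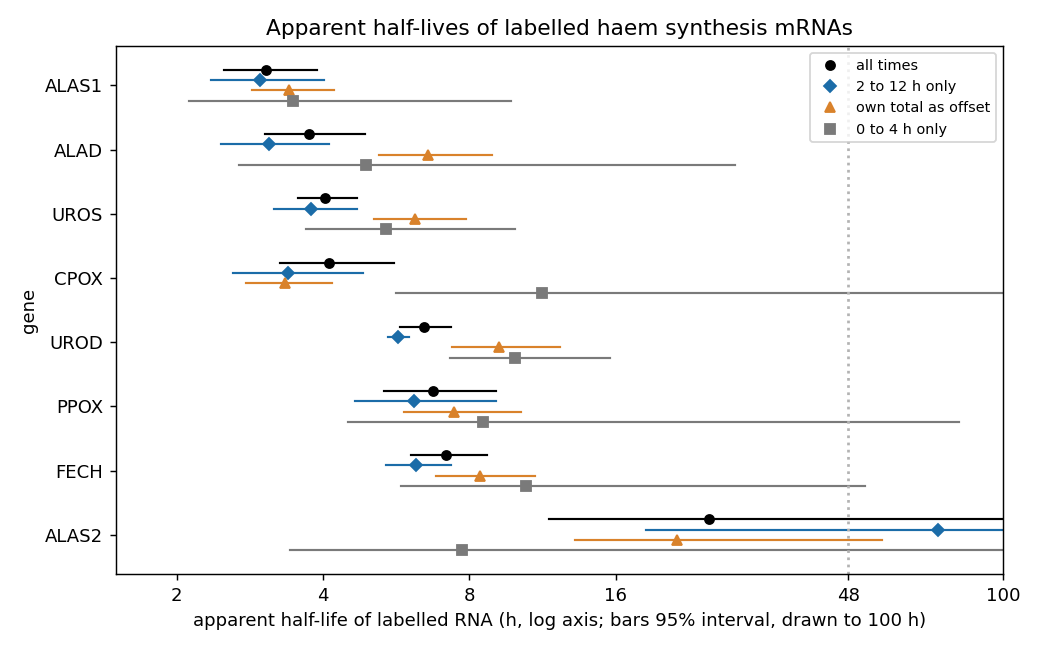
Apparent half-life of labelled RNA (h, log axis) of the 8 genes, with 95% intervals as bars drawn to 100 h at most, from all times (circles), 2 to 12 h (diamonds), each gene's own total as scale (triangles) and 0 to 4 h (squares). ALAS1 is shortest at 3.05 h from all times, and the bars of ALAS2 pass the dotted line at 48 h, beyond which only the lower limit was read.

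The share of label in each gene's own RNA falls by decay and by dilution with new unlabelled RNA. By this measure 6 of the 8 members (ALAS2, ALAD, UROS, UROD, PPOX and FECH) fell more slowly than the median gene, against 39.8% of all genes, and none fell faster, against 38.3%. ALAS1 and CPOX did not pass (adjusted p = 0.363 and 0.0946, edgeR quasi-likelihood test). Their share slopes were -0.297 and -0.313, so CPOX and not ALAS1 was the steepest member by this measure. The median share slope was -0.15 over the members and -0.27 over all genes. The labelled share of ALAS1 was 81.2 and 80.3 (0 h), 83.5 and 76.4 (1 h), 72.04 and 72.97 (2 h), 44 and 45 (4 h), 10.8 and 18.2 (8 h) and 7.25 and 11.1 (12 h) (%). That of ALAS2 was 48.7 and 34.2 (0 h), 37.1 and 34 (1 h), 32.99 and 33.97 (2 h), 33.2 and 35.3 (4 h), 31.6 and 23.01 (8 h) and 24.9 and 29.01 (12 h) (%). The share of ALAS1 was thus the lower of the pair from 8 h on, after having been the higher up to 4 h.

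Unlabelled RNA was taken as the rest of each gene's counts. That rest also holds any reads of labelled RNA in which no 4sU was read as C. Loss of such RNA may thus enter these slopes and levels, and its part was not tested. The slope was below that of the median gene for 5 of the 8 members (ALAS2, ALAD, UROS, UROD and PPOX, background 32.7%). It was above the median for 1, CPOX (background 26.8%). Of the 5, ALAS2, ALAD and PPOX had slopes above 0, and UROS and UROD had slopes below 0, at -0.05 ± 0.01 and -0.0049 ± 0.0077 (SE) per hour. Unlabelled RNA of UROS averaged 17.1 ± 1.54 CPM at 12 h, against 23.1 ± 0.629 CPM at 0 h (SD, n = 2 each). CPOX had unlabelled levels of 3.58 and 2.55 (0 h), 3.24 and 2.25 (1 h) and 3.49 and 3.99 (2 h), then 10.5 and 6.53 (4 h), 14.1 and 13.6 (8 h) and 18.2 and 17.9 (12 h) CPM. Both replicates of 4 h exceeded all earlier libraries and both of 12 h exceeded all others, and the slope was above the median by 0.12 per hour (adjusted p = 0.00111, edgeR). ALAS1 had unlabelled levels of 1.29 and 1.44 (0 h), 1.38 and 1.89 (1 h) and 1.82 and 1.48 (2 h), then 4.38 and 2.95 (4 h), 7.61 and 5.37 (8 h) and 5.56 and 4.37 (12 h) CPM and did not pass the test (0.106), though it did without replicate 2 of 12 h (0.0359). UROD stayed between 361 and 442 CPM of unlabelled RNA in the chase libraries, beside 418 CPM in the library without 4sU. With adjustment for spike-in composition, the slopes of UROS and UROD were still below the median (adjusted p = 0.000123 and 0.00135, edgeR). The other 4 calls were lost, with adjusted p from 0.0808 for CPOX to 0.355 for ALAD.

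Total RNA of 6 of the 8 members (ALAS1, ALAD, UROS, UROD, CPOX and FECH) differed between chase times, against 62.3% of 16255 genes tested. In the first hour none of the 8 differed (1 h against 0 h, edgeR; 0.357% of all genes did), and none did at an unadjusted p under 0.05 by edgeR or by DESeq2. At 12 h against 0 h, 4 members were lower (ALAS1, ALAD, UROS and UROD; 29.1% of all genes) and 1 was higher (CPOX; 27% of all genes). The median log2 fold change was -0.33 over the 8 members and -0.06 over all genes. Fold changes are on counts scaled by the trimmed mean of M-values (TMM), so they can differ slightly from ratios of CPM.

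ALAD and UROS, which act in sequence in the cytosol, had the largest falls in total RNA among the members. ALAD had 21.7 and 22.1 (0 h), 20.7 and 22.4 (1 h) and 23.1 and 20.7 (2 h), then 16.6 and 14.8 (4 h), 14.5 and 10.6 (8 h) and 10.7 and 9.75 (12 h) CPM. UROS had 34.5 and 34.1 (0 h), 37.2 and 36.7 (1 h) and 28.2 and 32.1 (2 h), then 28.2 and 33.1 (4 h), 25.4 and 22.9 (8 h) and 17.3 and 19.97 (12 h) CPM. Both 12 h libraries lay below all libraries up to 4 h in each gene, and the 12 h and 0 h groups did not overlap. At 12 h ALAD averaged 10.2 ± 0.664 CPM, against 21.9 ± 0.311 CPM at 0 h (SD, n = 2 each), a log2 fold change of -1.25 ± 0.15 (SE; adjusted p = 4.8e-08, edgeR). For UROS it was 18.6 ± 1.89 CPM at 12 h and 34.3 ± 0.272 CPM at 0 h, with -1.03 ± 0.12 (SE; adjusted p = 3.0e-08, edgeR). Both calls held under all 19 alternatives run.

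UROD had 637 and 640.2 (0 h), 629 and 633 (1 h) and 602 and 587 (2 h), then 534 and 547 (4 h), 494 and 511 (8 h) and 509 and 495 (12 h) CPM. Its 12 h libraries lay below all libraries of 0 to 4 h, with a log2 fold change of -0.50 ± 0.06 (SE; adjusted p = 1.3e-07, edgeR) at 12 h against 0 h. CPOX moved the other way, with 12.9 and 11.5 (0 h), 12.8 and 10.2 (1 h) and 11.9 and 11.8 (2 h), then 17.7 and 14.5 (4 h), 16.9 and 16.9 (8 h) and 18.9 and 19.1 (12 h) CPM. Both 12 h libraries were the highest of the chase, and the log2 fold change at 12 h against 0 h was 0.48 ± 0.15 (SE; adjusted p = 0.00780, edgeR). That call was lost without replicate 2 of 0 h (adjusted p = 0.0631). With adjustment for spike-in composition the value was 0.74 (adjusted p = 0.0160, edgeR), while over the 6 times CPOX then did not pass (adjusted p = 0.0606, against 0.00300 without it).

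ALAS1 had 6.86 and 7.33 (0 h), 8.34 and 7.99 (1 h) and 6.50 and 5.47 (2 h), then 7.81 and 5.37 (4 h), 8.53 and 6.56 (8 h) and 5.996 and 4.91 (12 h) CPM. Replicate 1 was higher than replicate 2 at both 4 and 8 h, and both 12 h values lay below both 0 h values. Its log2 fold change at 12 h against 0 h was -0.53 ± 0.22 (SE; adjusted p = 0.0442, edgeR), a call that held in 7 of 19 alternatives. Among leave-one-out fits it was weakest without replicate 2 of 12 h (-0.34, adjusted p = 0.319), and with adjustment for spike-in composition the value was -0.02 (adjusted p = 0.973). The loss of the call without one library also occurred for replicates 1 and 2 of 0 h, replicates 1 and 2 of 1 h, replicate 1 of 2 h and the library without 4sU, with adjusted p of 0.0646 to 0.176. Over the 6 times ALAS1 differed with an adjusted p of 0.0404 (edgeR), and this call held in 5 of 19 alternatives. It was lost without either replicate of 0, 1, 2 or 12 h and without the library lacking 4sU, with adjusted p of 0.0578 to 0.237, and with adjustment for spike-in composition (0.0763).

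ALAS2, PPOX and FECH did not differ at 12 h against 0 h beyond the spread. ALAS2 had 30.8 and 28.9 (0 h), 31.9 and 25.4 (1 h) and 27.1 and 27.2 (2 h), then 26.8 and 25.8 (4 h), 32.8 and 28.9 (8 h) and 32.8 and 33.1 (12 h) CPM. PPOX had 27.6 and 27.99 (0 h), 29.8 and 29.05 (1 h) and 27.9 and 26.4 (2 h), then 27.3 and 25.5 (4 h), 27.4 and 28.96 (8 h) and 26.4 and 28.9 (12 h) CPM, and its values at all times lay between 25.5 and 29.8 CPM. FECH had 42.5 and 41.5 (0 h), 44.96 and 42.05 (1 h) and 43.5 and 42.7 (2 h), then 40.6 and 42.9 (4 h), 38.7 and 37.4 (8 h) and 42.2 and 41.3 (12 h) CPM. The log2 fold changes at 12 h against 0 h were -0.01 ± 0.11 for ALAS2, -0.16 ± 0.11 for PPOX and -0.16 ± 0.09 for FECH (SE), with adjusted p of 0.948, 0.233 and 0.152 (edgeR). FECH did differ over the 6 times (adjusted p = 0.0161, edgeR), lowest at 8 h, but this call held in 9 of 19 alternatives. It was lost, each left out in turn, without replicate 1 of 0, 1, 2 or 8 h or replicate 2 of 8 or 12 h, with adjusted p of 0.0544 to 0.112, and it was lost with adjustment for spike-in composition (0.223).

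Total RNA was also set against the library without 4sU. At 0 h ALAD, UROS and UROD were higher than without 4sU (33.5% of all genes were) and ALAS1 and ALAS2 were lower (31.8%). ALAD had 21.7 and 22.1 CPM at 0 h, against 7.17 CPM without 4sU, a log2 fold change of 1.55 ± 0.19 (SE; adjusted p = 3.8e-08, edgeR). UROS had 34.5 and 34.1 CPM, against 21.6 CPM, and UROD 637 and 640.2 CPM, against 418 CPM, with 0.61 ± 0.14 and 0.56 ± 0.08 (SE; adjusted p = 0.000366 and 5.5e-07, edgeR). ALAD, UROS and UROD were also among the genes that were lower at 12 h than at 0 h, but both contrasts share the 0 h libraries.

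ALAS1 had 6.86 and 7.33 CPM at 0 h, against 14.3 CPM without 4sU, a log2 fold change of -1.07 ± 0.23 (SE; adjusted p = 0.000189, edgeR). ALAS2 had 30.8 and 28.9 CPM at 0 h, against 49.2 CPM without 4sU, a log2 fold change of -0.77 ± 0.13 (SE; adjusted p = 8.1e-06, edgeR). All 12 chase libraries lay below the library without 4sU for both genes, with highest values of 8.53 CPM for ALAS1 and 33.1 CPM for ALAS2. CPOX, PPOX and FECH did not pass, with log2 fold changes of -0.21 ± 0.18, 0.05 ± 0.13 and 0.02 ± 0.11 (SE).

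After 12 h of chase ALAS1, ALAS2 and UROS were lower than without 4sU (24.9% of all genes were) and no member was higher (26.2%), a contrast in which all 3 libraries lie on the same side of the spike-in split. ALAS1 had 5.996 and 4.91 CPM, against 14.3 CPM, with a log2 fold change of -1.60 ± 0.23 (SE; adjusted p = 1.2e-06, edgeR). ALAS2 had 32.8 and 33.1 CPM, against 49.2 CPM, with -0.78 ± 0.13 (SE; adjusted p = 7.6e-06, edgeR). UROS had 17.3 and 19.97 CPM, against 21.6 CPM, with -0.41 ± 0.14 (SE; adjusted p = 0.0161, edgeR), a call lost without replicate 1 of 12 h (adjusted p = 0.123). ALAD had 10.7 and 9.75 CPM, against 7.17 CPM, and its log2 fold change of 0.30 ± 0.19 (SE) did not pass (adjusted p = 0.195, edgeR). Tests against the unreplicated library without 4sU assume that it varies like the rest.

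**Figure D5:**
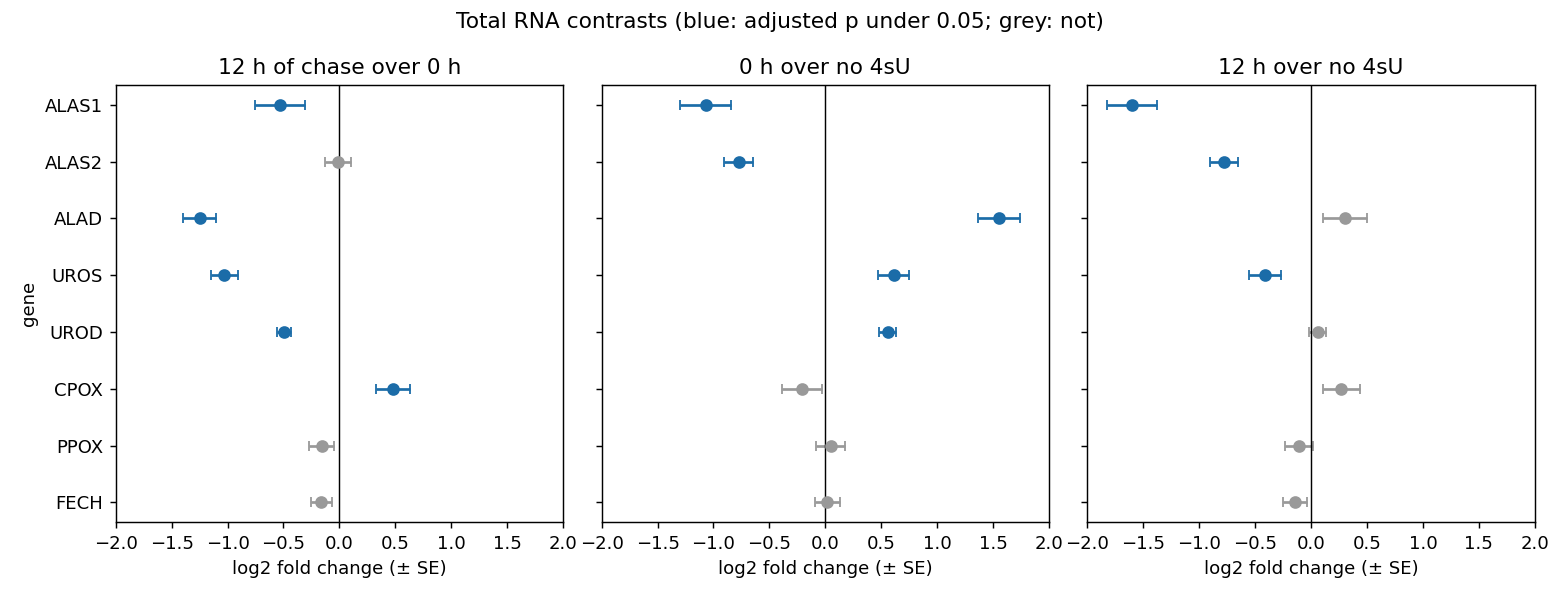
Log2 fold change of total RNA (x axes, points with SE bars) of the 8 genes (rows) at 12 h over 0 h, at 0 h over no 4sU and at 12 h over no 4sU. Blue points passed an adjusted p of 0.05 (edgeR) and grey ones did not; ALAS1 and ALAS2 lie left of 0 in both contrasts with the library without 4sU, and ALAD lies at 1.55 at 0 h.

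Scaling to the spike-in moves all genes of these contrasts, since total counts per spike-in count were 12.7 to 16.3 in chase libraries and 9.68 without 4sU. It raised the median log2 fold change of all genes to 0.36 at 12 h against 0 h, to 0.54 at 0 h against no 4sU and to 0.94 at 12 h against no 4sU. The numbers of genes higher and lower then became 6570 and 2226, against 4388 and 4737 with TMM, at 12 h over 0 h. They became 7544 and 2987, against 5448 and 5172, at 0 h over no 4sU, and 10134 and 898, against 4260 and 4055, at 12 h over no 4sU. Relative to the median gene of the spike-in scale, at 12 h over 0 h, ALAD was at -1.19, UROS at -0.96, UROD at -0.44 and CPOX at 0.54 on the log2 scale. Relative to the median, ALAS1 and ALAS2 were at -1.65 and -0.83 at 12 h over no 4sU. On the spike-in scale itself ALAS1 and UROD did not pass at 12 h over 0 h (-0.12 and -0.08, adjusted p = 0.709 and 0.470, edgeR), and ALAS2 did (0.41, adjusted p = 0.0130). Over the 6 times ALAS1, UROD and FECH did not pass on it (adjusted p = 0.377, 0.202 and 0.454, edgeR) and ALAS2 did (0.00316). At 0 h over no 4sU the call of ALAS2 was lost on it (-0.29, adjusted p = 0.114, edgeR), and PPOX and FECH passed at 0.53 and 0.50 (adjusted p = 0.00762 and 0.00511). At 12 h over no 4sU, ALAS1 was still lower on it (-0.71, adjusted p = 0.0117, edgeR), ALAS2 was at 0.11 and did not pass (0.546), and the other 6 members were higher, UROS least at 0.49.

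The genes around the pathway were mixed too, against a background of 36.3% of all genes slower and 36% faster than the median gene. Among 10 partners of haem synthesis, mainly mitochondrial carriers and transporters, 5 lost label more slowly and 3 faster than the median gene, with a median slope of -0.21. The ends were SLC25A28, a mitochondrial iron carrier, at -0.54 ± 0.04 and TMEM14C, needed for protoporphyrinogen import, at -0.08 ± 0.01 (SE). Of 8 genes of haem transport and breakdown, 5 could be tested, and 1 was slower and 3 faster, with a median of -0.30. SLC48A1, a haem transporter, was at -0.42 ± 0.02 and BLVRB, a biliverdin reductase, at -0.09 ± 0.01 (SE).

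Of 13 genes of iron-sulphur cluster assembly, 12 could be tested, and 7 were slower and 2 faster, with a median of -0.20. IBA57, an assembly factor, was at -0.37 ± 0.02 and HSPA9, a mitochondrial chaperone, at -0.09 ± 0.01 (SE). Of 8 genes that sense haem or regulate the synthases, 7 could be tested, and 2 were slower and 3 faster, with a median of -0.26. BACH1, a repressor that binds haem, was at -0.53 ± 0.03 and ACO1, an iron regulatory protein that binds iron-responsive elements, at -0.13 ± 0.02 (SE). The median over all genes was -0.24, and nothing particular to any of these lists is read from the counts.

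Likeness of total RNA was measured as Pearson's r of log2(CPM + 1) over the 13 libraries among 8057 genes, as a description. In the single library without 4sU, ALAS1, ALAS2, ALAD and UROD lay outside their ranges in the chase libraries. The weight of that library in r was not tested. The genes most like ALAD were PPTC7 (0.98) and RPL34P33 (0.98), those most like UROD were ZNF622 (0.99) and ZNF529 (0.99), and those most like UROS were RIC8A (0.96) and DCUN1D4 (0.95). ALAS2 was most like RAB24 (0.96) and SRSF9 (0.96), and CPOX was most like SMC2 (0.95) and COPB1 (0.94). For ALAS1 they were ZNF217 (0.86) and VPS29 (0.86), for FECH RPS15AP38 (0.80) and AKAP8L (0.79), and for PPOX TMEM14A (0.74) and DMAC1 (0.71). RPL34P33 and RPS15AP38 are pseudogenes whose counts may include reads of their parent genes.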

How the data were processed

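The 13 SLAM-seq libraries of K562 cells were assigned by title to 6 times of chase, in duplicate, or to the control that lacked 4sU. Per the labels, the authors' tables hold raw counts: 1 of all reads per human gene, 1 of reads called nascent by the authors (labelled here), and 1 of Drosophila reads. From the submitters' processing notes come the tools bcl2fastq (2.17.1.14), Trim Galore (0.6.5) and bedtools and the builds dm6 and hg38. Not given in the sources used here were the aligner, the counter, strand use and the conversions required of a nascent read, which decide what counts as labelled. Total counts were 9004529 to 17425584 per library.

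Slopes per hour of chase were tested with edgeR 4.0.16 under R 4.3.3, by quasi-likelihood F tests (two-sided; Benjamini-Hochberg over all genes; threshold 0.05). The offset was the log TMM effective library size or, for the share, the gene's own total. Genes needed a mean of 5 CPM and 100 labelled counts. Total counts were fitted as 7 groups with 1 common spread, after filterByExpr. A quasi-Poisson exponential, with the share without 4sU as background, gave the half-lives (Python 3.11.15), read as lower limits only where the upper bound passed 48 h. Counts were also simulated, with 200 changed genes and the same spread for every gene. For the labelled slope, 78 to 100% of genes with differences of 0.1 or 0.2 per hour were recovered. For 12 h against 0 h it was 22 to 74% of those with log2 changes of 0.5 or 1. In the data 6980 and 9125 genes passed these tests, so the rates may not carry over.

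All 8 enzymes were named, with the 2 genes most like each (mean of at least 10 CPM) and the tested ends of each list by labelled slope. Members and lists were chosen with earlier results of these data known. Transcripts are those of GENCODE 29 with the highest APPRIS rank. Alternatives were size factors or tests of DESeq2 1.42.0, scaling to the spike-in, other filters and windows, the replicate block, the spike-in split as a factor, and each library left out.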

Additional observations from a re-analysis of the deposited data

How the results depend on the processing

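Most counts of genes that passed stayed within 1.5 times of the reported one under every alternative run. The exceptions were the labelled slope in the window of 0 to 4 h (3591 genes, against 6980) and with the spike-in split as a factor (4500). With that factor the unlabelled slope gave 1951 genes, against 5751, and 12 h against 0 h gave 6029, against 9125. For 1 h against 0 h, 58 genes passed, against 107 with no filter on low counts, 104 with the split as a factor and 32 to 106 when each library was left out. It was 32 without replicate 1 and 37 without replicate 2 of 0 h, and 106 without replicate 1 or 2 of 4 h.

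Of the 8 members, 5 passed for the labelled slope, against 1 in the window of 0 to 4 h and 3 with the split as a factor. Of all genes, 6980 of 9652 passed, against 3591 of 9544 in that window and 4500 of 9652 with the split. With the split as a factor, 2 members passed for the unlabelled slope, against 6, and 3 for total RNA over the chase, against 6. Among all genes the numbers were 1951 of 9652, against 5751, and 6917 of 16255, against 10133. At 12 h against 0 h, 5 passed, against 3 to 5 when each library was left out, the 3 being without replicate 2 of 0 h. Among all genes 9125 of 16255 passed at 12 h against 0 h. At 12 h over no 4sU, 3 members passed, against 7 with spike-in totals as library sizes. Of all genes, 8315 of 16255 passed there, against 11032 with spike-in totals. On that scale ALAS2 turned to a log2 fold change of 0.41 at 12 h over 0 h and to 0.11 at 12 h over no 4sU, where UROS turned to 0.49, PPOX to 0.79 and FECH to 0.75. The scale itself shifts the median gene by 0.36 and 0.94 there.

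The median half-life of all genes was 4.30 h, against 6.26 h from 0 to 4 h, 3.75 h from 2 to 12 h, 3.79 h on the scale of own totals and 5.01 h with spike-in totals. Over 15 pairs of times the deviations of libraries with the same replicate number had r of -0.14 to 0.39, with 3 over 0.1. Such values do not settle whether the numbers pair the libraries, since differences between 2 libraries also hold their noise. With the replicate number as a block, 6927 genes passed for the labelled slope, 7489 for the share slope, 5626 for the unlabelled slope, 10298 for total RNA over the chase and 9210 at 12 h against 0 h. The block gave 76 genes at 1 h against 0 h, 10714 at 0 h and 8474 at 12 h over no 4sU, and no call of a member changed. Depth limits ALAS1 most, with 5 and 7 labelled counts at 12 h. The other causes were not tested.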
